A study of Mus musculus with 10 samples.

Results

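Cholesterol and fatty acid synthesis was followed through 32 genes in mouse fibroblasts on the way to induced pluripotency. The genes were taken by symbol, which is the sixth field of each deposited transcript name, and all 32 were found among the 45706 genes of the tables. They cover 7 early steps that make isoprenoid units, 11 steps from squalene to cholesterol, 6 regulators or carriers of sterols, and 8 enzymes that make, lengthen or desaturate fatty acids. All 32 passed the filter on low counts, which left 20165 genes tested.

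Sterol synthesis joins acetyl-CoA units into mevalonate, turns mevalonate into isoprenoid diphosphates, couples these to squalene, and closes and trims the ring system until cholesterol is reached. Fatty acid synthesis draws on the same cytosolic acetyl-CoA, builds palmitate, and passes it to elongases and desaturases. Most of these genes are known targets of the SREBP factors, encoded by Srebf1 and Srebf2, which are held in the endoplasmic reticulum with SCAP and the INSIG proteins when sterols are plentiful and are released to the nucleus when sterols are scarce.

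Poly(A) RNA was sequenced from 5 groups with 2 libraries each. Fibroblasts from mouse embryos (MEF, strain C57BL/6 x 129) carried the OKSM cassette, for Oct4, Klf4, Sox2 and Myc, at Col1a1 and the M2rtTA transactivator at ROSA26, and were grown in MEF medium with no doxycycline. Cells of the same genotype were collected on day 3, 6 and 9 of induction with doxycycline at 1 µg/ml and ascorbic acid at 50 µg/ml in ES cell medium, which held 15% fetal bovine serum and LIF at 1000 U/ml. Day 3 cells were unsorted, and day 6 and day 9 cells were sorted as SSEA1-positive. Embryonic stem cells (ESC) of the single V6.5 line grew in the same ES medium on irradiated feeder cells. The composition of MEF medium is not given in the sources used here. Induction of the cassette with doxycycline, the ascorbic acid and the ES cell medium therefore came together between MEF and day 3, and their effects cannot be told apart. The series text calls the libraries biological replicates but does not tie them to cultures or animals, so the p-values measure the spread between these libraries.

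Libraries held 29585876 to 38275024 estimated reads. The summed level of 8 fibroblast marker genes was 35293 and 34989 CPM (reads scaled to a common library size) in MEF, 4048 and 4090 at day 3, 312 and 295 at day 6, 113 and 121 at day 9, and 2997 and 3166 in ESC. All 8 markers reached 1 CPM in MEF, and 7 of 8 did in ESC, where Lum was at 0.177 and 0.534 CPM. The ESC culture held feeder cells, and the part of feeder RNA in any ESC value given below was not tested. The 6 adipocyte markers summed to at most 1.77 CPM in any library, with Cfd at 0 throughout. Xist, the RNA that coats an inactive X chromosome, was at 0.739 and 0.793 CPM in MEF and between 929.6 and 1317 CPM in the induced libraries, while the Y-linked gene Ddx3y was at 90.6 and 86.4 CPM in MEF and at or below 0.176 CPM in the induced libraries. In ESC, Xist was at 11.3 and 9 CPM and Ddx3y at 26.1 and 26.8 CPM. The sex of the cells thus differed between the induced libraries and both MEF and ESC, and its part in every comparison of day 3, 6 or 9 with MEF or ESC cannot be told apart from the rest. Among the members Nsdhl and Ebp are X-linked.

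By day 3 the pathway as a whole was lower. In TPM, a level corrected for transcript length, the 32 genes summed to 2004 and 1917 in MEF, 672 and 696 at day 3, 713 and 672 at day 6, 661 and 653 at day 9, and 746 and 729 in ESC. Both MEF libraries stood apart from the other 8, which lay between 653 and 746 TPM. The MEF mean was 2.87-fold that of day 3. Without Scd2, one of the most abundant members, the sum was still 1719 TPM in MEF and 618 TPM at day 3, a 2.78-fold difference. Summed, the fibroblast markers at day 3 stood at 11.6% of their MEF level, but single markers fell unequally. Mean CPM went from 4880 in MEF to 17.2 at day 3 for Postn, and from 713 to 392 for Prrx1. The part of a changed cell makeup in the members' values was not tested. In bulk RNA, fewer cells of a type and less RNA per cell cannot be told apart.

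Gene by gene, 27 of the 32 members fell by day 3 and 0 rose, at an edgeR adjusted p under 0.05 and a change of at least 2-fold. Of all genes tested, 14.5% fell and 14.6% rose by that rule. The members were chosen with earlier results of these data known. The median log2 fold change was -1.58 over the members and 0.08 over all tested genes. Dropping the 2-fold minimum gave 30 members lower and 2 higher, against 29.5% and 35.4% of all genes. With library-size scaling in place of TMM, which moved the median of all genes from 0.08 to 0.285, 22 members were lower by at least 2-fold and 0 higher.

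**Figure D1:**
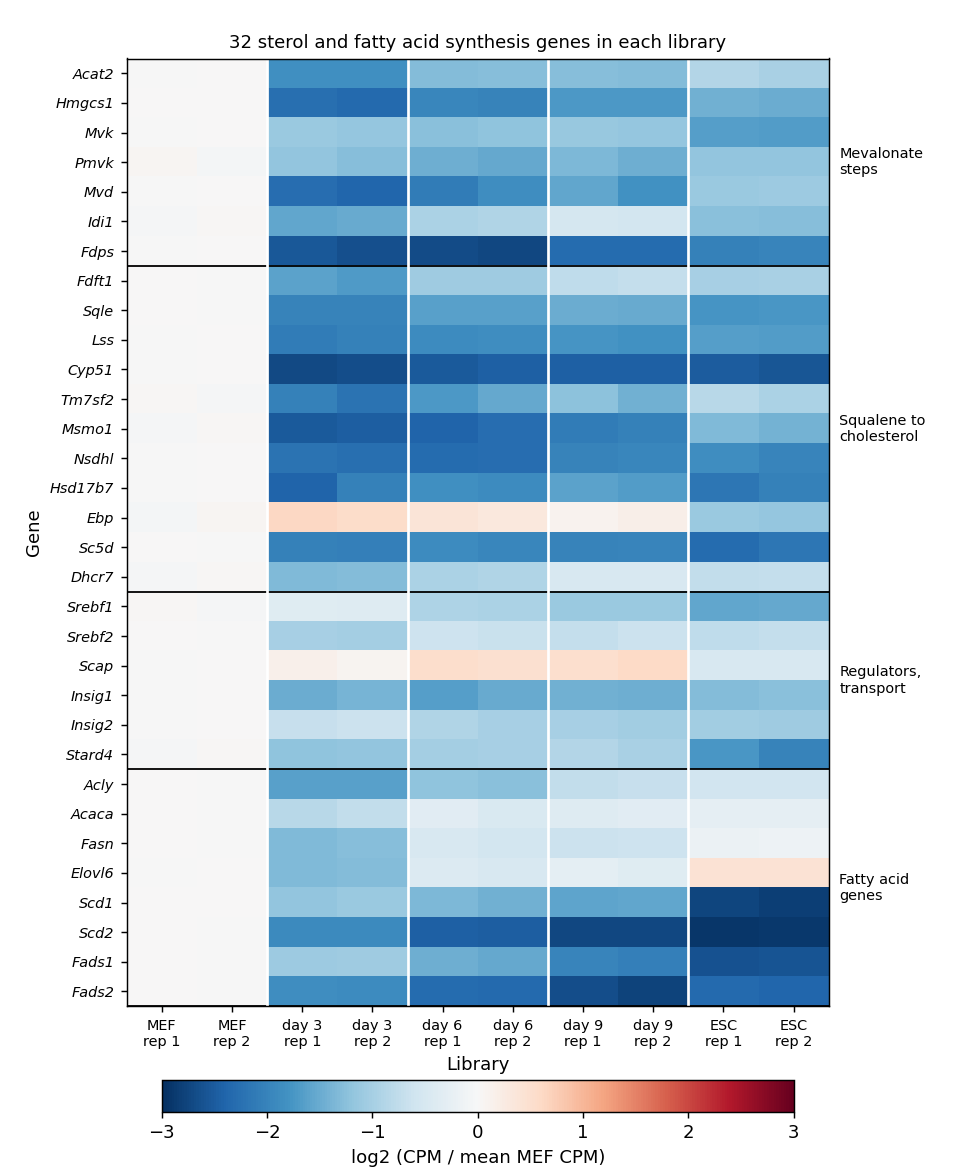
Heat map of log2 CPM relative to the MEF mean for the 32 genes (rows, ordered by role) in the 10 libraries (columns, 2 per group). From day 3 onward most sterol and desaturase genes lie below the MEF mean, while Ebp and Scap lie above it until day 9.

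All 7 genes of the early, isoprenoid-forming steps fell, with a median log2 fold change of -1.83. Fdps, which makes farnesyl diphosphate (chr3:89093588-89101959 on GRCm38, minus strand), was at 409 and 414 CPM in MEF, 70.3 and 66.4 at day 3, 64.3 and 62.1 at day 6, 83 and 82.6 at day 9, and 100.4 and 104 in ESC. MEF was high in both libraries, and no library of another group reached it. The log2 fold change of Fdps at day 3 was -2.59 ± 0.04 (SE; edgeR adjusted p = 3.8e-16), a 6.02-fold fall.

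Hmgcs1, the cytosolic HMG-CoA synthase (chr13:119690379-119708260, plus strand), was at 496 CPM in both MEF libraries, 104 and 99.1 at day 3, 127 and 123 at day 6, 150.2 and 151 at day 9, and 183 and 177 in ESC. Its lowest group was day 3, and each later group lay above the one before with no overlap. Between MEF and day 3 Hmgcs1 had a log2 difference of -2.28 ± 0.04 (edgeR adjusted p = 8.8e-16). Mvd, the decarboxylase that yields isopentenyl diphosphate (chr8:122433601-122443422, minus strand), was at 86.1 and 87.4 CPM in MEF, 17.7 and 16.8 at day 3, 20.3 and 23.9 at day 6, 29.6 and 24.8 at day 9, and 40.2 and 40.5 in ESC. The order of the groups was the same as for Hmgcs1. At day 3 the log2 fold change of Mvd was -2.33 ± 0.08 (edgeR adjusted p = 3.9e-12).

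The other early enzymes fell less. Acat2, which condenses acetyl-CoA, had a log2 fold change of -1.83, Idi1, the isomerase of the isoprenoid units, -1.53, and the kinases Pmvk and Mvk -1.23 and -1.13. Summed in TPM, the 7 genes were at 581 and 566 in MEF and 135 and 139 at day 3, a 4.19-fold difference. The mean of Fdps was 313 TPM in MEF and 81 TPM in ESC, levels that are uncertain because part of its sequence is shared with other genes.

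Of the 11 genes from squalene to cholesterol, 10 fell and 1, Ebp, did not; the median log2 fold change was -2.07. Cyp51, the lanosterol demethylase (chr5:4081145-4104746, minus strand), was at 327 and 329.6 CPM in MEF, 50.3 and 51.7 at day 3, 57.2 and 59.7 at day 6, 59.9 and 60 at day 9, and 58.2 and 55.5 in ESC. The induced and ESC libraries lay within 10 CPM of each other and far below MEF. No member changed more than Cyp51 by day 3, whose log2 difference was -2.69 ± 0.04 (edgeR adjusted p = 3.2e-16), a 6.44-fold fall.

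Msmo1, Nsdhl and Hsd17b7 act in turn to strip methyl groups from the sterol after Cyp51. Msmo1 (chr8:64718139-64733792, minus strand) was at 209 and 219 CPM in MEF, 37.3 and 38.4 at day 3, 40.2 and 43.9 at day 6, 50 and 52.7 at day 9, and 85.8 and 80 in ESC. Nsdhl (chrX:72918557-72958514, plus strand) was at 101 and 104 CPM in MEF, 22.2 and 21.5 at day 3, 20.7 and 21 at day 6, 25.4 and 26.4 at day 9, and 28.4 and 25.9 in ESC. Hsd17b7 (chr1:169949535-169969241, minus strand) was at 68.5 and 68.9 CPM in MEF, 13 and 16.9 at day 3, 19.2 and 18.5 at day 6, 22.7 and 21.4 at day 9, and 15.3 and 16.9 in ESC. For all 3 genes both MEF libraries were above every other library. Msmo1 climbed back furthest by ESC, where Hsd17b7 was again within its day 3 range. The log2 fold changes at day 3 were -2.50 ± 0.05 for Msmo1, -2.23 ± 0.05 for Nsdhl and -2.20 ± 0.09 for Hsd17b7.

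Lss, which closes the rings to lanosterol (chr10:76531588-76557138, plus strand), was at 166 and 171 CPM in MEF, 39.1 and 41.1 at day 3, 45.5 and 46.3 at day 6, 49.7 and 47.5 at day 9, and 53.9 and 52.8 in ESC. Sc5d, a sterol desaturase of the last steps (chr9:42251595-42264256, minus strand), was at 77.6 and 77 CPM in MEF, 19.1 and 18.6 at day 3, 20.8 and 19.9 at day 6, 19.4 and 19.5 at day 9, and 15.7 and 17.3 in ESC. Tm7sf2, a sterol reductase (chr19:6062821-6068373, minus strand), was at 25 and 24.1 CPM in MEF, 6.06 and 5.26 at day 3, 7.44 and 8.41 at day 6, 10.5 and 9.09 at day 9, and 13.8 and 12.7 in ESC. MEF overlapped no other group in any of these genes. ESC was the lowest group for Sc5d, whereas day 3 was the lowest for Lss and Tm7sf2. Log2 fold changes at day 3 were -2.07 ± 0.04 for Lss, -2.04 ± 0.05 for Sc5d and -2.11 ± 0.10 for Tm7sf2. Sqle, the squalene epoxidase, fell by 2.00 on the log2 scale, Fdft1, the squalene synthase, by 1.66, and Dhcr7, the reductase of the final step, by 1.32.

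Ebp, the sterol isomerase (chrX:8185329-8193512, minus strand), went the other way and is described here because its values set it apart. It was at 45.1 and 48.4 CPM in MEF, 72.2 and 68.1 at day 3, 61.6 and 58.1 at day 6, 50.4 and 52.4 at day 9, and 21.6 and 20.9 in ESC. Day 3 was the highest group and ESC the lowest, and no groups overlapped. The log2 fold change at day 3 was 0.58 ± 0.05 (edgeR adjusted p = 1.5e-07), a 1.5-fold difference that did not reach the 2-fold minimum. Nsdhl, the other X-linked member, fell over the same step. From 51.8% to 61.5% of the reads assigned to Ebp in a library fell on a transcript model annotated as retaining an intron.

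**Figure D2:**
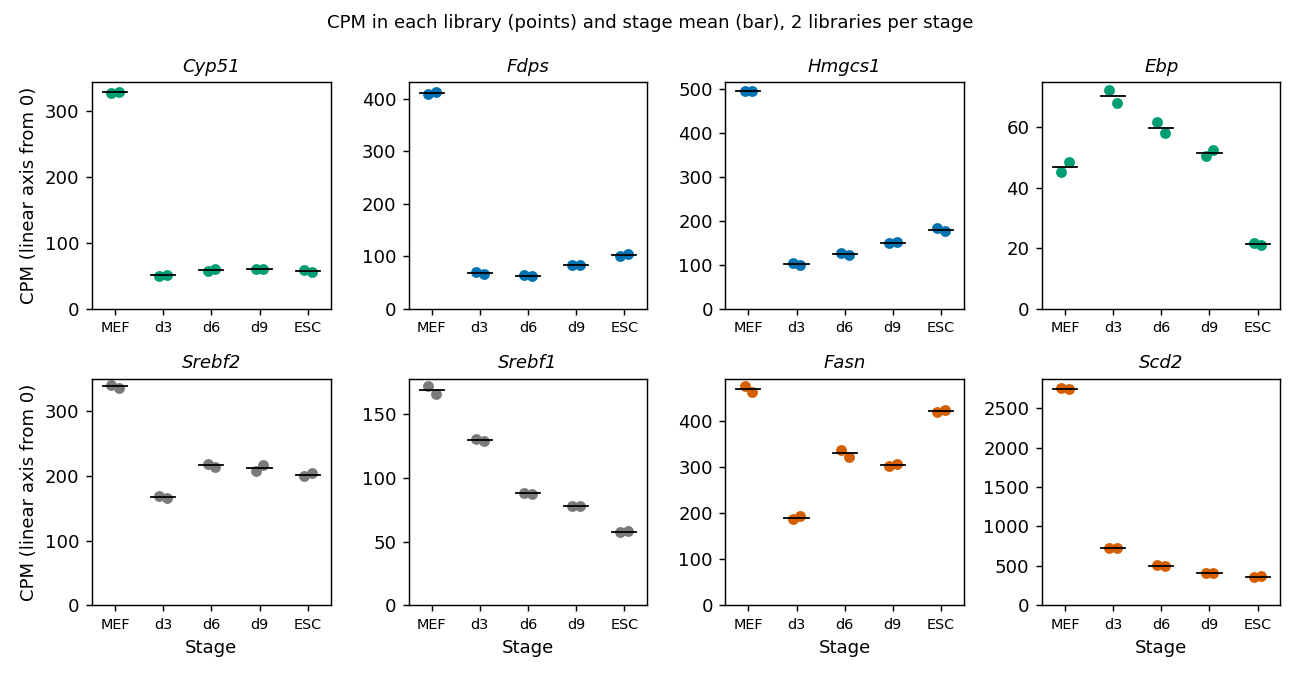
CPM of 8 members in each library (points, 2 per group, linear axes from 0) with the group mean (bar). Cyp51, Fdps and Hmgcs1 drop between MEF and day 3, Ebp is highest at day 3, Srebf1 declines from group to group, Fasn returns by ESC to 419 and 425 CPM, and Scd2 keeps falling.

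Promoter sequence was read for every member with a RefSeq promoter window, whether or not it fell by day 3. RefSeq promoter windows on GRCm38.p6, from 250 bases before to 50 after a start site, were matched by symbol for 25 of the 32 members (33 windows). Fdps, Fdft1, Sqle, Stard4, Scd1, Scd2 and Fads1, all called lower at day 3, had no window. Scap, Srebf1, Insig2, Acaca and Ebp, which were not called, had one or more. They were searched on both strands for TCACNCCAC, a form of the sterol regulatory element that SREBP factors bind, and for CCAAT, the NF-Y motif found near such elements. The 250 upstream bases are shown for a gene with both motifs (Hmgcs1, chr13:119690101-119690350, plus strand), for the member with the largest fall (Cyp51, chr5:4104698-4104947, minus strand), for the fatty acid synthase gene (Fasn, chr11:120824548-120824797, minus strand) and for Ebp (chrX:8193513-8193762, minus strand), with matches to either motif on either strand in capitals.
Hmgcs1: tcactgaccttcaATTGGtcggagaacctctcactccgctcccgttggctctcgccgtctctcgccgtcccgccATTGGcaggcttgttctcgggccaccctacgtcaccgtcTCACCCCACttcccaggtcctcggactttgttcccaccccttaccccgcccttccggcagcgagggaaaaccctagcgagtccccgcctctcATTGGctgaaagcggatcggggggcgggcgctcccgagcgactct
Cyp51: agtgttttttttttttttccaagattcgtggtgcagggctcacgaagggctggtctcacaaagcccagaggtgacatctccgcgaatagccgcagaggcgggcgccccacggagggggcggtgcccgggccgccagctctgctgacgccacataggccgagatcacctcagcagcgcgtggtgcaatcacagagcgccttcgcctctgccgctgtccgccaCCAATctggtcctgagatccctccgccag
Fasn: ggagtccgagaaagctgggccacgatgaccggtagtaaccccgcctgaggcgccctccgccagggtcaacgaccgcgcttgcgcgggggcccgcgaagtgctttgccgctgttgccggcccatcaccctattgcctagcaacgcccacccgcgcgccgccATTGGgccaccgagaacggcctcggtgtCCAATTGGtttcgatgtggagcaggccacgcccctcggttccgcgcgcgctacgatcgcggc
Ebp: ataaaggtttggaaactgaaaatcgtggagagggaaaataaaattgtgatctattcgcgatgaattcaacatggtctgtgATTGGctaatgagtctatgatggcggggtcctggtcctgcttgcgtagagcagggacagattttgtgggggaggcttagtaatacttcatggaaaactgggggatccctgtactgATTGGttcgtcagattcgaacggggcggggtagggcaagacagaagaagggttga

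The TCACNCCAC form was present in Hmgcs1, at bases -137 to -129 from the start site, and in no window of the other 24 members matched. It occurred in 1.24% of all 32851 windows. CCAAT was present in a window of 20 of the 25 members (80%), against 41.1% of the 27025 genes in the table. Those genes were taken whatever their level, whereas all members passed the filter on low counts. By window, 21 of 33 (63.6%) held it, against 37.4% of all windows. Ebp held 2 CCAAT matches. In Hmgcs1 the TCACNCCAC match and the CCAAT matches do not overlap. A match is a description of these letters only. Other forms of the sterol regulatory element were not searched for. A window with no match may therefore hold another form, and no match says nothing of binding elsewhere.

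**Figure D3:**
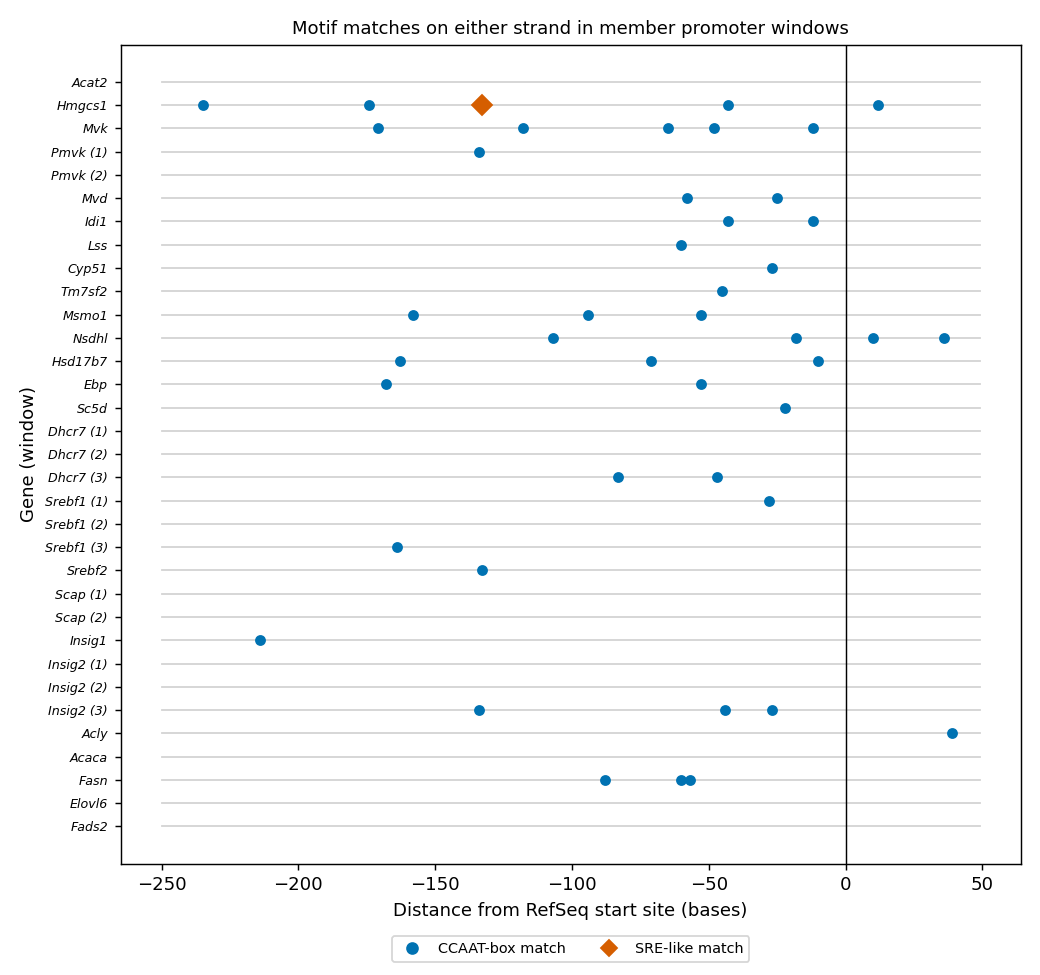
Positions of TCACNCCAC and CCAAT matches on either strand relative to the start site (bases, horizontal axis) for each RefSeq window of a member (rows). Most CCAAT matches lie upstream of the start site, and TCACNCCAC appears in the Hmgcs1 window alone.

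Among the 6 regulators and carriers, 3 fell by day 3 (Srebf2, Insig1 and Stard4) and 0 rose by the 2-fold rule, with a median log2 fold change of -0.84. Srebf2, the SREBP gene best known for cholesterol synthesis (chr15:82147181-82205379, plus strand), was at 340.1 and 335 CPM in MEF, 168 and 166 at day 3, 218 and 214 at day 6, 207 and 217 at day 9, and 199 and 204 in ESC. It was lowest at day 3, and day 6 and day 9 overlapped. Its log2 fold change of -1.01 ± 0.03 at day 3 (edgeR adjusted p = 2.7e-12) sat at the 2-fold minimum, and the call of Srebf2 was lost under 5 alternatives. These were library-size scaling (-0.81), limma on log2(TPM + 1) (-0.94) and on log2(TPM + 0.1) (-0.98), no low-count filter, and leaving out the second day 3 library.

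Srebf1, the SREBP gene best known for fatty acid synthesis (chr11:60199089-60222581, minus strand), was at 172 and 166 CPM in MEF, 130.4 and 129 at day 3, 88.3 and 87.5 at day 6, 78.2 in both libraries at day 9, and 57.4 and 58.2 in ESC. Each group lay below the one before, with no overlap. The step to day 3 was -0.38 ± 0.03 (edgeR adjusted p = 1.1e-07) and the whole difference between ESC and MEF was -1.55 ± 0.03 (edgeR adjusted p = 2.2e-14), both on the log2 scale. Scap, the escort protein of the SREBP factors, was at 64 and 65.5 CPM in MEF, 71.7 and 69 at day 3, 92.6 and 90.3 at day 6, 91.9 and 97.3 at day 9, and 46.5 and 46.1 in ESC. Its day 3 value was close to MEF, by a log2 difference of 0.12 (edgeR adjusted p = 0.024) that was -0.01 with DESeq2, and the sorted groups were highest.

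Insig1 and Insig2 encode the anchors that hold the SCAP and SREBP complex back. Insig1 (chr5:28071363-28078662, plus strand) was at 168 and 169 CPM in MEF, 59.7 and 63.7 at day 3, 53.7 and 58.7 at day 6, 62.1 and 61.3 at day 9, and 68.6 and 70.8 in ESC. Insig2 (chr1:121304353-121332589, minus strand) was at 41.2 and 42 CPM in MEF, 25.7 and 26.4 at day 3, 22.4 and 21 at day 6, 20.8 and 20.2 at day 9, and 20.2 and 20 in ESC. MEF was the highest group for both genes, and the other groups lay close together. Log2 fold changes at day 3 were -1.45 ± 0.05 for Insig1 and -0.68 ± 0.05 for Insig2. On the TPM scale the change of Insig2 was larger and past 2-fold (-1.16 in limma on log2(TPM + 1)), and the cause was not tested. The TPM of Insig2 differed between the MEF replicates, at 127 and 94.2, so this value is uncertain. Stard4, a carrier that moves sterols between membranes, had a log2 fold change of -1.19.

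Of the 8 fatty acid genes, 7 fell by day 3, at a median log2 fold change of -1.31, and Acaca, the acetyl-CoA carboxylase, had a log2 fold change of -0.79. Scd2, a stearoyl-CoA desaturase (chr19:44293674-44306864, plus strand), was at 2748 and 2735 CPM in MEF, 729.9 and 733 at day 3, 506 and 494 at day 6, 411 and 416 at day 9, and 360.3 and 368 in ESC. Every group lay below the one before it, with no overlap. The log2 fold change at day 3 was -1.91 ± 0.03 (edgeR adjusted p = 5.7e-16).

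Scd1, which catalyses the same reaction (chr19:44394455-44407879, minus strand), was at 498 CPM in both MEF libraries, 221 and 229 at day 3, 195 and 184 at day 6, 167 and 169 at day 9, and 73.5 and 70 in ESC. Fads1, a desaturase of polyunsaturated fatty acids (chr19:10182888-10196877, plus strand), was at 339 and 336 CPM in MEF, 158 and 161 at day 3, 123 and 116 at day 6, 84.9 and 82 at day 9, and 54.8 and 56.5 in ESC. Fads2, its partner (chr19:10062765-10101746, minus strand), was at 166 and 164 CPM in MEF, 45.2 and 44.9 at day 3, 33.2 and 32.8 at day 6, 26.3 and 24.2 at day 9, and 32.7 and 31.5 in ESC. All 3 declined through day 9 without overlap between successive groups. Scd1 and Fads1 were lower again in ESC, and Fads2 was not. The part of feeder RNA in these ESC values was not tested. Log2 fold changes at day 3 were -1.14 ± 0.04 for Scd1, -1.08 ± 0.04 for Fads1 and -1.87 ± 0.04 for Fads2. With library-size scaling those of Scd1 and Fads1 were -0.94 and -0.87, short of the 2-fold minimum.

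From day 3 to day 6 no member changed by the 2-fold rule with edgeR, DESeq2 or limma, against 9.26% of all genes higher and 10.2% lower with edgeR. Smaller differences were nonetheless measured: 29 of 32 members had an unadjusted edgeR p under 0.05, and at an adjusted p under 0.05 with no fold minimum 19 were higher and 10 lower (29.2% and 27.3% of all genes). The median was 0.20 over the members and 0.03 over all genes. Day 3 was unsorted and day 6 sorted, so time and selection cannot be told apart in this step.

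From day 6 to day 9, both sorted, again no member changed by the 2-fold rule with edgeR, DESeq2 or limma, against 5.18% of all genes higher and 2.68% lower. An unadjusted edgeR p under 0.05 was reached by 21 members. At an adjusted p under 0.05 with no fold minimum, 13 were higher and 7 lower (15.7% and 18.9% of all genes). Acly, ATP citrate lyase and the source of cytosolic acetyl-CoA, had the largest rise, 0.51 ± 0.03 on the log2 scale, and Fads1 the largest fall, -0.52 ± 0.04.

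Within the fatty acid genes the 4 desaturases and the 4 genes of synthesis and elongation parted, a grouping made after their values were seen. Elongation is represented in it by Elovl6 alone. Elongases outside the members went both ways from day 3 to day 6. On the log2 scale Elovl1 was at -0.94 and Elovl5 at -0.16, while Elovl4 was at 0.17, Elovl7 at 1.57 and Elovl2 at 1.70. Mean levels at day 3 and day 6 were 70.7 and 36.8 CPM for Elovl1, 85.9 and 76.7 for Elovl5, and 4.12 and 12.2 for Elovl7. Elovl4 (0.648 and 0.731 CPM) and Elovl2 (0.0874 and 0.283 CPM) were barely detected, so their values are uncertain. The difference of Elovl4 had an edgeR adjusted p of 0.65. Fasn, the fatty acid synthase (chr11:120805846-120824547, minus strand), was at 477 and 464 CPM in MEF, 187 and 194 at day 3, 337 and 323 at day 6, 303 and 306 at day 9, and 419 and 425 in ESC. Elovl6, which lengthens palmitate, was at 116 and 119 CPM in MEF, 47.3 and 47.4 at day 3, 88.3 and 84 at day 6, 96.1 and 91.3 at day 9, and 158 in both ESC libraries. Acly was at 544 and 541 CPM in MEF, 176 and 175 at day 3, 236 and 229 at day 6, 327 and 336 at day 9, and 365 and 364 in ESC. All 3 were lowest at day 3 and higher in both libraries of every later group. From day 3 to day 6 Elovl6 rose by 0.86 ± 0.04, Fasn by 0.79 ± 0.03, Acly by 0.41 ± 0.03 and Acaca by 0.39 ± 0.04 on the log2 scale. Over the same step Scd2 fell by 0.55 ± 0.03, Fads2 by 0.45 ± 0.05, Fads1 by 0.42 ± 0.04 and Scd1 by 0.25 ± 0.04. All 8 differences had an edgeR adjusted p of 4.1e-05 or less. These p-values come from the data that gave the grouping and are no separate support for it. In TPM the 4 desaturases summed to 405 and 394 in MEF, 125 and 132 at day 3, 95.2 and 90.9 at day 6, 71.2 and 70 at day 9, and 62.7 and 61.7 in ESC.

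**Figure D4:**
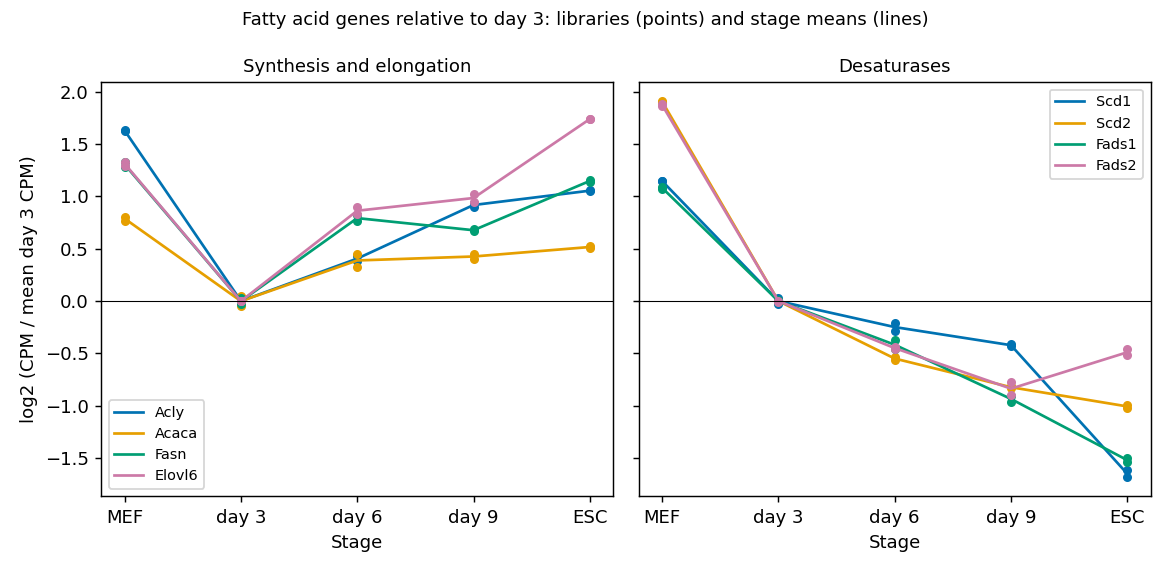
Log2 CPM relative to the day 3 mean for the 8 fatty acid genes in each library, by group, with synthesis and elongation genes apart from desaturases. Acly, Acaca, Fasn and Elovl6 lie above their day 3 level at day 6 and day 9, and Scd1, Scd2, Fads1 and Fads2 lie below it.

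The comparison of day 9 with day 3, added after the data were seen, set sorted against unsorted cells, so time and selection cannot be told apart here either. By the 2-fold rule 0 members were called by edgeR, the only tool run on it, against 13.5% of all genes higher and 13.3% lower. An adjusted p under 0.05 with no fold minimum was reached by 21 members in the higher direction and 8 in the lower (32.3% and 30.8% of all genes). Of the 18 sterol enzymes 14 were higher and 2, Ebp and Pmvk, lower. Idi1 rose by 0.98 ± 0.04 and Fdft1 by 0.92 ± 0.04 on the log2 scale, just short of 2-fold. Idi1 was at 167 and 174 CPM in MEF, 58.3 and 60 at day 3, 88.6 and 91.9 at day 6, 118 and 116 at day 9, and 71.6 and 70.8 in ESC. Day 9 was thus its highest group after MEF. Cyp51, by contrast, rose by only 0.23 ± 0.04. Against MEF, 22 members were lower by the 2-fold rule at day 6 and 21 at day 9, and 0 were higher on either day. The shares of all genes were 18.9% lower and 21.6% higher at day 6, and 19.8% lower and 24.1% higher at day 9.

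A day could also stand outside both end points, called against MEF and against ESC in the same direction. At day 3 this held for 6 members, all lower than both: Mvd, Tm7sf2, Msmo1, Acly, Fasn and Elovl6. The share of all genes was 6.65% lower than both and 6.36% higher than both, and 0 members were higher. Against ESC the day 3 log2 differences were -1.74 ± 0.04 for Elovl6, -1.23 ± 0.08 for Mvd, -1.22 ± 0.11 for Tm7sf2, -1.15 ± 0.03 for Fasn, -1.13 ± 0.05 for Msmo1 and -1.05 ± 0.03 for Acly. At day 6 and day 9 no member stood outside both end points with edgeR. For day 6 the shares of all genes were 8.74% lower and 7.49% higher than both, and for day 9 8.48% and 8.17%. Msmo1 came close at day 6, with a log2 difference from ESC of -0.98 ± 0.05.

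Few members differed between ESC and day 9 cells by 2-fold or more. Day 9 cells were sorted and induced with doxycycline and ascorbic acid, while ESC were another line grown on feeder cells. These differences and the sex of the cells cannot be told apart in this comparison. By the 2-fold rule 3 members were lower in ESC and 0 higher, against 14.3% and 18.6% of all genes. The 3 were Ebp, which is X-linked, at a log2 difference of -1.28 ± 0.06, Scd1, -1.23 ± 0.04, and Scap, -1.03 ± 0.04. The call of Scap was lost with DESeq2 (-0.96), library-size scaling (-0.98), limma on log2(TPM + 1) (-0.80) and log2(TPM + 0.1) (-0.83), and without the second day 9 library (-0.99). That of Scd1 was lost with limma on log2(TPM + 1) (-0.98), and without the first ESC library Stard4 was called too (-1.07). With no fold minimum 13 members were higher and 14 lower (36.1% and 33.5% of all genes). Elovl6 and Msmo1 had the largest positive values, 0.75 ± 0.04 and 0.69 ± 0.05, and Elovl6 passed 2-fold in limma on log2(TPM + 1), at 1.02. The median was -0.05 over the members and 0.00 over all genes.

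Between ESC and MEF, 22 members were lower in ESC and 0 higher by the 2-fold rule, against 20.6% and 25.5% of all genes. With no fold minimum 31 were lower and 1, Elovl6, higher (36.2% and 40.4% of all genes). The median log2 fold change was -1.32 over the members and 0.10 over all genes. This comparison shares the MEF libraries with that of day 3 and MEF, so the values are given side by side and not as separate support. Cyp51 was at -2.69 at day 3 and -2.53 in ESC, Fdps at -2.59 and -2.01, Hmgcs1 at -2.28 and -1.46, and Mvd at -2.33 and -1.10. Scd2 was at -1.91 at day 3 and -2.91 in ESC, Scd1 at -1.14 and -2.79, and Fads1 at -1.08 and -2.60. The largest difference from MEF was that of Cyp51 at day 3 and that of Scd2 in ESC.

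All 4 desaturases were lower in ESC than in MEF by 5.14-fold or more, with a median log2 fold change of -2.70. None of the 4 genes of synthesis and elongation, as grouped after the values were seen, was called. Acly was at -0.58 ± 0.03 and Elovl6 at 0.42 ± 0.04, while Acaca (-0.28) and Fasn (-0.16) changed sign with library-size scaling, to 0.06 and 0.18. That scaling moved the median of all genes from 0.10 to 0.438 and left 16 members lower and 0 higher. Summed, the fibroblast markers of the ESC libraries stood at 8.77% of their MEF level, and feeder cells were present in that culture. For comparison, Scd2 in ESC was at 13.3% of its MEF mean, Scd1 at 14.4%, Fads1 at 16.5% and Cyp51 at 17.3%. The part of feeder RNA in these values was not tested.

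**Figure D5:**
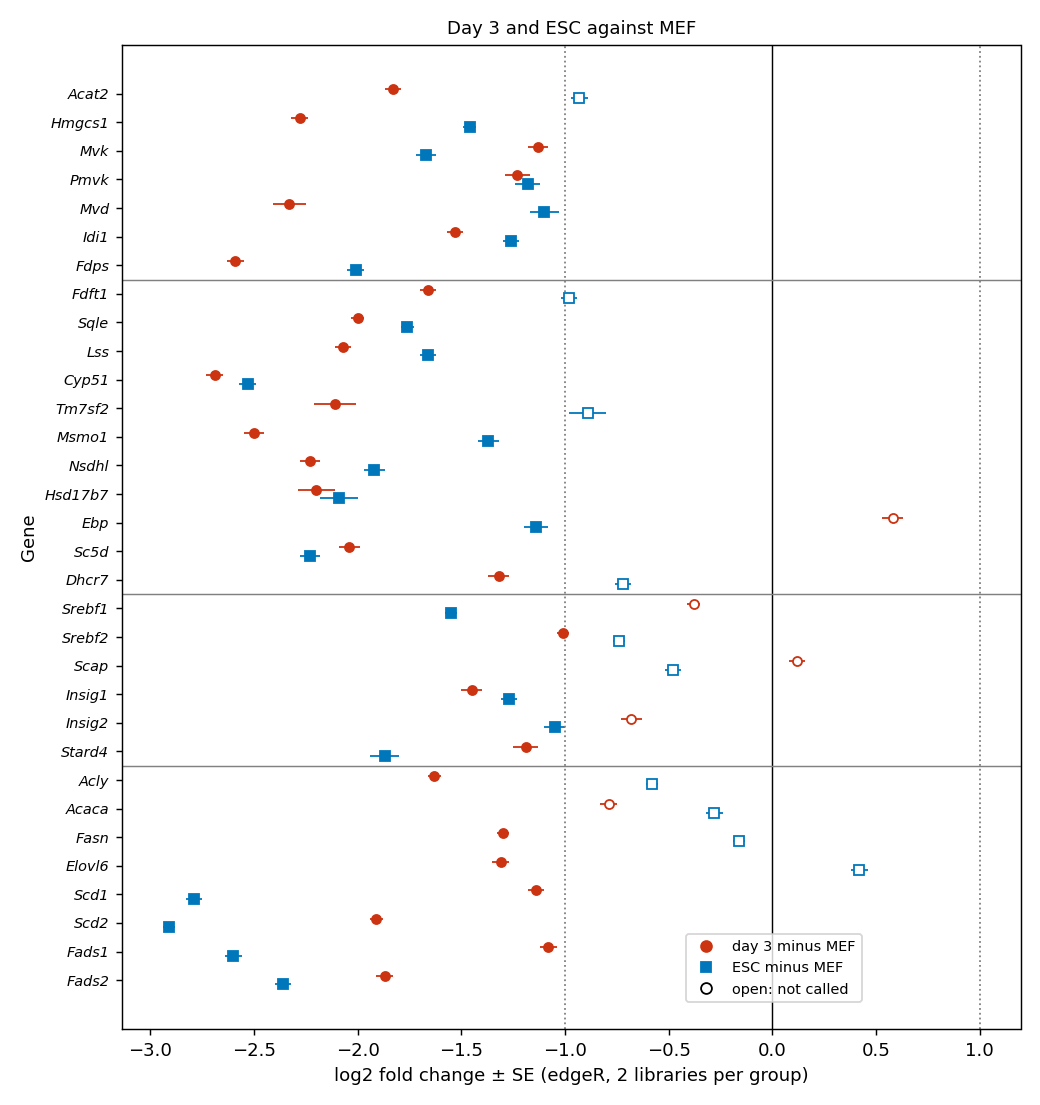
Log2 fold change against MEF with its standard error for each member at day 3 and in ESC, both measured against the same 2 MEF libraries. Most sterol enzymes lie further from 0 at day 3, all 4 desaturases lie further from 0 in ESC, and Ebp, Scap and Elovl6 change sides.

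Other genes of the same pathways, listed by function, were set beside the members. These lists, like the members, were chosen with earlier results of these data known, so they are no independent background. Of 25 other sterol pathway genes 4 fell and 1 rose by day 3, with a median log2 fold change of -0.31, and of 25 tested other fatty acid genes 8 fell and 2 rose, with a median of -0.62. Over all genes 14.5% fell and 14.6% rose, so the count of other sterol genes that fell is near the share of all genes. The members' median over the same step was -1.58. Among other sterol genes that reached 20 CPM in MEF or at day 3, the largest fall was that of Tmem97, a sterol-responsive membrane protein, from 68 and 69.5 CPM in MEF to 28.8 and 29.1 at day 3. The gene that rose was Stard5, a sterol carrier, from 12.7 and 13 CPM to 35.5 and 35.4. Among other fatty acid genes the largest fall was that of Fads3, a relative of Fads1 and Fads2. Fads3 went from 219.7 and 219 CPM in MEF to 25.7 and 23.4 at day 3, 3.32 and 3.05 at day 6, 1.99 and 2.95 at day 9, and was at 21.7 and 23.8 in ESC. Its log2 difference of -3.16 at day 3 was larger than that of any of the 32 members. In ESC against MEF, 7 of the other sterol genes were lower and 2 higher, and 10 of the other fatty acid genes were lower and 7 higher, beside 20.6% lower and 25.5% higher over all genes.

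Some members share sequence with other genes, which bears on how their reads could be assigned. Of the 50-base words in the annotated transcripts of Acat2, 39.8% also occur in another gene, chiefly Acat3, and the share was 30.4% for Acaca, 26.2% for Fdps, 17.7% for Idi1, 14.1% for Fdft1 and 12.4% for Tm7sf2. It was below 5% for each of the other members, including Scd1 and Scd2, which share 4.66% and 4.01% with other genes. Values of the 6 genes named first are therefore uncertain in level. Among the members that overlap an annotated gene on the opposite strand were Acaca (19126 bases), Lss (11268), Mvd (9822) and Hmgcs1 (6190), and whether the authors' quantification used strand is not given in the sources used here.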

How the data were processed

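RNA-seq of 10 libraries was used, in 5 groups of 2 taken from the sample titles, with single reads of 50 nt from a stranded poly(A) kit per the labels' protocols. Quantification used Salmon 0.8.2 and build mm10, per the submitters' processing notes; the index, annotation release and strand setting are not given in the sources used here. The authors deposited 1 table per library holding, per the file headers, the estimated count and the TPM of 109617 transcripts, beside the length and effective length of each transcript. Estimated counts were summed to 45706 genes here and rounded to whole numbers, and TPM was summed per gene.

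Genes were kept with filterByExpr of edgeR 4.0.16 (R 4.3.3; minimum count 10, minimum total 15). The quasi-likelihood test used all 10 libraries, 1 mean per group and TMM scaling, and p-values were adjusted by Benjamini-Hochberg over the 20165 genes tested. A gene was called at an adjusted p under 0.05 and a change of at least 1 on the log2 scale. CPM values are on the TMM scale. Standard errors come from the F statistic. The common biological coefficient of variation was 3.75%, and replicates differed by more than sampling noise (chi-square per degree of freedom 2.78 to 5.05), so each library counted once. Depth was 29585876 to 38275024 reads.

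The members and the lists of other genes were chosen with earlier results of these data known. All 32 members are named whatever their values. Values in every library are given for the 14 members with the largest absolute log2 fold change in any of the 5 comparisons, for Srebf1, Srebf2, Insig1, Insig2, Scd1 and Scd2, and for Ebp, Scap, Fasn, Elovl6, Acly and Idi1, which were chosen after their values were seen. Of the other pathway genes, those with the largest called rise and fall at 20 CPM or more may be named, and other elongases are named beside Elovl6. Erg28 was found under an older symbol.

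Alternatives were DESeq2 1.42.0, limma 3.58.1 on log2(TPM + 1) and log2(TPM + 0.1), library-size scaling, no low-count filter, a fit to the groups compared, no fold minimum, a replicate block and leaving out each library. Coordinates come from GENCODE M21 (GRCm38) by gene ID, and promoter windows from RefSeq (GRCm38.p6). Scripts were tested on simulated data. Python 3.11.15, pandas 2.3.3 and matplotlib 3.10.9 were used. Genes outside the lists were not analysed here.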

Additional observations from a re-analysis of the deposited data

How the results depend on the processing

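Over the 32 members in the 5 main comparisons no called value changed direction under an alternative. The day 6 and day 9 comparisons with MEF, day 9 with day 3, and the other pathway genes were not tested gene by gene under the alternatives. At day 3 against MEF the members called lower numbered 27 with edgeR, 27 with DESeq2, 27 with limma under either pseudocount, 26 with no low-count filter, 22 with library-size scaling and 26 to 27 with a library left out. In ESC against MEF they numbered 22, and 24 with DESeq2, 20 with limma on log2(TPM + 1), 16 with library-size scaling and 22 to 23 with a library left out. In ESC against day 9 they numbered 3, and 2 with DESeq2 and with library-size scaling, 1 with limma on log2(TPM + 1), and 2 to 4 with a library left out, while 1 member, Elovl6, was higher with limma under either pseudocount; the cause was not tested. Members lower at day 6 than both MEF and ESC numbered 0, and 1 with DESeq2, library-size scaling and limma under either pseudocount, and 0 to 1 with a library left out (1 without the second day 6 or the second ESC library); the cause was not tested. Dropping the fold minimum, which admits smaller differences by construction, gave 2 higher and 30 lower at day 3 against MEF, 19 and 10 at day 6 against day 3, 13 and 7 at day 9 against day 6, 13 and 14 in ESC against day 9, and 1 and 31 in ESC against MEF. It gave 2 higher and 19 lower than both end points at day 3, 2 and 15 at day 6, and 2 and 13 at day 9. Equal replicate numbers are not said to share a preparation, and deviations from the group means correlated at 9.9e-05 on average between libraries of equal number (10 pairs). With a replicate block all 160 gene comparisons kept their call, and the members lower at day 3 numbered 27, in ESC against MEF 22 and in ESC against day 9 3. With 2 libraries per group, 1 library left out leaves a lone sample that is assumed to vary like the other groups. Differences near 2-fold, as for Srebf2 and Scap, are not settled at this number of libraries.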

Other observations

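Within genes, the share of reads by transcript model also differed between groups, which gene sums do not show. For Lss, lanosterol synthase, the main protein-coding model of 4667 bases took 66.3% and 64.8% of the gene's estimated reads in MEF, 43.4% and 43.2% at day 3, 40.5% and 42.5% at day 6, 44.2% and 43.1% at day 9, and 64% and 62.7% in ESC. A model of 6992 bases annotated as retaining an intron took 16.6% and 18.1% in MEF, 33.6% and 33.5% at day 3, and 14% and 14.9% in ESC. The induced libraries thus stood apart from both end points, while the total of Lss was low in ESC as well. The gene on the opposite strand overlaps Lss by 11268 bases, and its part in these shares was not tested. For Tm7sf2, replicates of a group differed widely in their shares (the main protein-coding model of 1471 bases took 43.6% and 13.3% at day 3), so no order of groups can be read from them.

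Insig2 depended on the scale. Its CPM was alike at day 9 (20.8 and 20.2) and in ESC (20.2 and 20), whereas the log2 difference between them was 0.86 in limma on log2(TPM + 1). In TPM Insig2 was at 25.3 and 38.5 at day 9 and 57.3 and 57.5 in ESC. Its TPM also differed between replicates in MEF (127 and 94.2) and at day 6 (60.3 and 37.6). The TPM values of Insig2 are therefore uncertain, and the cause was not tested.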
